A study of Mus musculus with 2 samples.

Results

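The MAP kinases, the kinases above and below them and the phosphatases and Sprouty-type inhibitors that shut them off were compared between primary tumours and liver metastases of Colon26, a mouse colon carcinoma cell line. The members were taken by gene symbol: genes named Mapk, Mapkapk, Map2k, Map3k or Map4k with a number, the numbered Dusp genes, the Rps6k genes, Spry1 to Spry4 and Spred1 to Spred3. This gave 73 of the 13506 named genes that had a value on both arrays. The array carried 85 such symbols, of which 12 lacked a value on at least 1 of the arrays. Of the 73, 72 belonged to 13 role groups of proteins, and Map2k3os was taken for its name although it is a non-coding transcript.

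The cells were injected under the mucosa of the rectum of Balb/c mice, and RNA was taken from the tumours at that site and from their metastases in the liver. Each of 2 arrays was hybridised with Cy5-labelled RNA of a primary tumour and Cy3-labelled RNA of a liver metastasis, and the labels describe the arrays as biological replicates. Both arrays had the same dye orientation, so a probe's bias towards 1 dye is part of its value on both. All samples derive from the same cell line in the same mouse strain, no age is stated for the mice, and the labels do not say whether tumours of several animals were pooled. Values are deposited log ratios of the channels, taken as log2, and the sources used here do not state which tissue is the numerator. A positive or a negative value therefore stands for a side of the ratio and is not assigned to the primary tumour or the metastasis. Folds are given for a base of 2.

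In this pathway a signal passes through tiers of protein kinases. MAP4K and MAP3K enzymes activate the MAP2K enzymes, each MAP2K phosphorylates a threonine and a tyrosine of its own MAP kinases, and the ERK, JNK and p38 kinases then act on transcription factors and on the downstream RSK, MSK and MK kinases. Dual-specificity phosphatases (DUSP) remove both phosphates again, and Sprouty and Spred proteins restrain the Ras and Raf step above ERK. The pathway works mainly through phosphorylation, which transcript arrays do not measure, but several DUSP and Sprouty genes are themselves switched on by it. Colon carcinomas often carry activating lesions in it.

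No member passed an adjusted p of 0.05 in limma's moderated test across all genes (0 of 73; genes that pass are termed called), where 391 of 13506 genes did, a background of 2.9% (2.12% on the positive and 0.777% on the negative side). The smallest adjusted p in that limma fit was 0.0514, for Rps6kc1. An unadjusted p under 0.05 was reached by 22 members, or 30.1%, against 27.5% of all genes. By sign, 35 members had 2 negative values, 16 had 2 positive values and 22 had mixed signs or a 0. These are 47.9% negative and 21.9% positive, against 38.2% and 33.9% of all genes. The median member had -0.14, with -0.16 on array 1 and -0.19 on array 2, and the median over all genes was -0.02. These are descriptions of the list without a test. Differences of at least 0.5 log2 units on both arrays were met by 4 positive and 4 negative members, and the background of that rule was 7.91% and 4.51%.

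**Figure D1:**
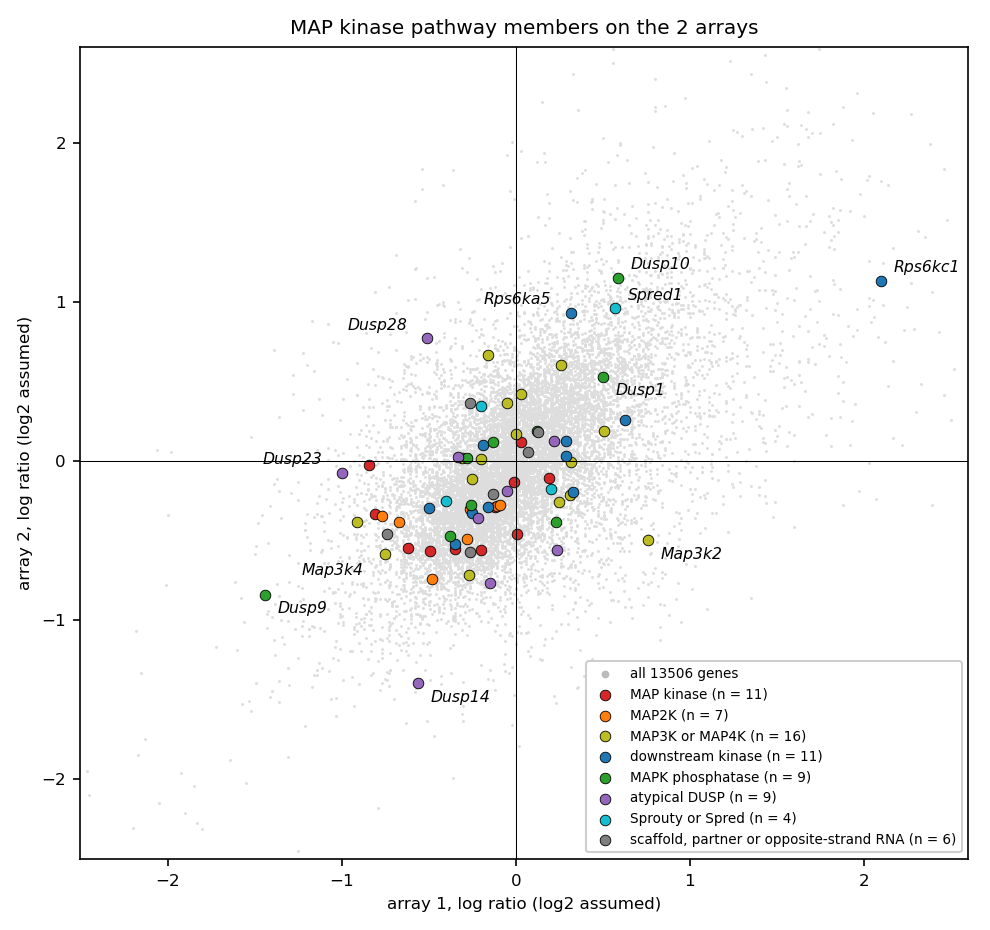
Log ratio (log2 assumed) of the 73 members on array 1 (x axis) and array 2 (y axis), coloured by role, over all 13506 genes in grey; genes beyond the axis limits are not drawn. Most members lie in the central cloud, and Rps6kc1 at 2.10 and 1.13 and Dusp9 at -1.44 and -0.84 stand farthest out.

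The arrays agreed for the members about as they did for other genes, with a Pearson r across the 73 members of 0.556 and across all genes of 0.615. Genes are not independent replicates, so this is a description. The median SD between the arrays was 0.21 for members and 0.17 for all genes.

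The activating MAP2K tier lay on the negative side throughout. All 7 measured members were negative on both arrays, with means from -0.61 to -0.18 and a median of -0.39. In limma's test over all genes 0 of 7 passed, and 3, or 42.9%, had an unadjusted p under 0.05, against 27.5% of all genes. Map2k2, an activator of the classical ERK kinases, had -0.48 on array 1 and -0.74 on array 2. Map2k1, its close relative with the same targets, had -0.77 and -0.35. Map2k5, the activator of ERK5, had -0.67 and -0.38. The means of the 3 genes were near each other, at -0.61 ± 0.18 (SD, n = 2), -0.56 ± 0.30 and -0.53 ± 0.20, with limma adjusted p of 0.104, 0.134 and 0.130. By their means, the activators of JNK and p38 lay closer to 0, which did not hold for Map2k4 on array 2. Map2k4 had -0.28 and -0.49, Map2k3 -0.26 and -0.30, Map2k6 -0.11 and -0.28 and Map2k7 -0.09 and -0.28. The order within the tier was not tested, and the 95% limma intervals of neighbouring genes in that order overlap.

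**Figure D2:**
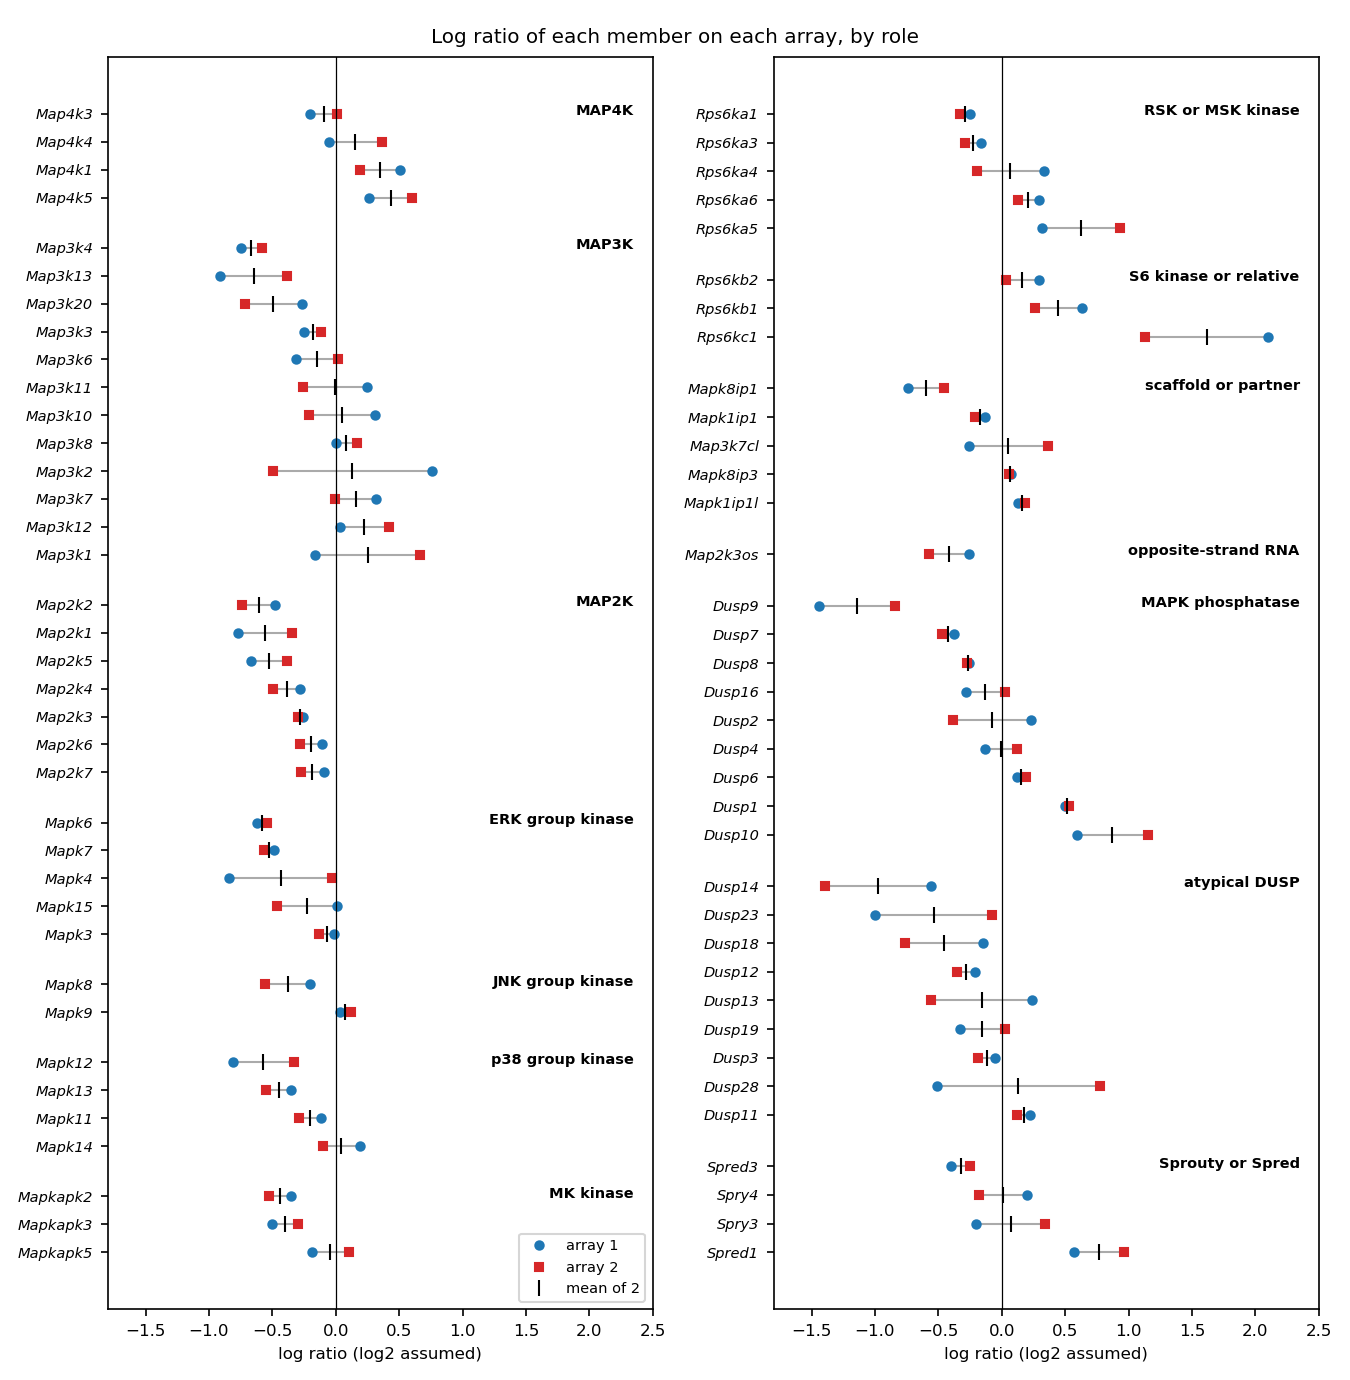
Log ratio (log2 assumed, x axis) of each of the 73 members (rows) on array 1 (blue circles) and array 2 (red squares), with the mean as a black tick, grouped by role. The 7 MAP2K genes lie left of 0 on both arrays, and the 3 genes of the group of S6 kinases and relatives lie right of 0 on both.

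Map2k3os and Map2k3 are neighbours on the chromosome that start head to head. Map2k3os had -0.26 on array 1 and -0.57 on array 2, a mean of -0.42 ± 0.22 (SD, n = 2), against -0.28 ± 0.03 for Map2k3. Both were thus on the same side on both arrays, and neither passed limma's test (adjusted p = 0.186 and 0.281). The 186 bases between their starts in the RefSeq table of GRCm38.p6 (chr11:60931868-60932053, given on the plus strand, 5′ to 3′ towards Map2k3) are shown because they lie upstream of both genes. Capitals mark the GC box GGGCGGG.
Map2k3os and Map2k3: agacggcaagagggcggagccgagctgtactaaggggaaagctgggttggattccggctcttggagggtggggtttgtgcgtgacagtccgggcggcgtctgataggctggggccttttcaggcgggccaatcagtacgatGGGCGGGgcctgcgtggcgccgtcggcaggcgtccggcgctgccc
The arrays give no measurement of this stretch.

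Of the MAP kinases themselves, 8 of 11 were negative on both arrays and Mapk9 alone was positive on both. Among the 8, Mapk3 had only -0.01 on array 1 and Mapk4 only -0.03 on array 2. The medians of all genes were -0.02 on array 1 and -0.03 on array 2, so neither value lay farther from 0 than the array median. In the ERK group, Mapk6, the atypical kinase ERK3, had -0.62 and -0.54 and a mean of -0.58 ± 0.05 (SD, n = 2). Mapk7, which is ERK5, had -0.49 and -0.56 and a mean of -0.53 ± 0.05. Both lay on the negative side with little spread, and their limma adjusted p was 0.102 and 0.117. Mapk3, which is ERK1, lay near 0 at -0.01 and -0.13, with a 95% limma interval of the mean from -0.46 to 0.32. Mapk4, the atypical kinase ERK4, had -0.84 on array 1 and -0.03 on array 2. Mapk15, which is ERK8, had 0.01 and -0.46, so its sign differed between the arrays.

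In the JNK group the 2 measured genes were on opposite sides. Mapk8, which is JNK1, had -0.20 and -0.56, and Mapk9, which is JNK2, had 0.03 and 0.12. Their 95% limma intervals, -0.82 to 0.06 and -0.31 to 0.46, overlap. Among the p38 genes, Mapk12 (p38 gamma) had -0.81 and -0.33, Mapk13 (p38 delta) -0.35 and -0.55, and Mapk11 (p38 beta) -0.12 and -0.29. The 3 were on the negative side on both arrays, with means of -0.57 ± 0.34 (SD, n = 2), -0.45 ± 0.14 and -0.21 ± 0.12 and limma adjusted p from 0.140 to 0.423. Mapk14 (p38 alpha), the broadly expressed form, had 0.19 and -0.10, and its 95% limma interval ran from -0.38 to 0.46. Mapk11 and Mapk12 are neighbours on the chromosome, as are Mapk13 and Mapk14. The former had the same sign on both arrays and the latter did not.

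The upper tiers did not share a side. Of 12 MAP3K genes, 4 had 2 negative values, 1 had 2 positive values and 7 had mixed signs or a 0. The median of their means was 0.02, while the medians on the single arrays were -0.08 on array 1 and -0.16 on array 2, so its sign turned when either array was left out. Map3k4, an activator of p38 and JNK, had -0.75 and -0.58, a mean of -0.67 ± 0.12 (SD, n = 2) and a limma adjusted p of 0.0879. Map3k13, a leucine zipper kinase upstream of JNK, had -0.91 and -0.38. Map3k20, the ZAK kinase that responds to stalled ribosomes, had -0.27 and -0.72, and Map3k3 had -0.25 and -0.11. Map3k12, with 0.03 and 0.42, was the member positive on both arrays. The remaining MAP3K genes, Map3k1, Map3k2, Map3k6, Map3k7, Map3k8, Map3k10 and Map3k11, had means from -0.14 to 0.25. Map3k2, an activator of the ERK5 and JNK branches, differed most between the arrays in this tier, with 0.76 on array 1 and -0.50 on array 2. Map3k8, known as Tpl2, was at 0.00 on array 1 and 0.17 on array 2. Among 4 MAP4K genes, 0 were negative on both arrays. Map4k5 had 0.26 and 0.60, and Map4k1, a kinase of blood cells known as HPK1, had 0.51 and 0.19, with limma adjusted p of 0.181 and 0.240. Map4k3 and Map4k4 had mixed signs, with means of -0.09 and 0.16.

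**Figure D3:**
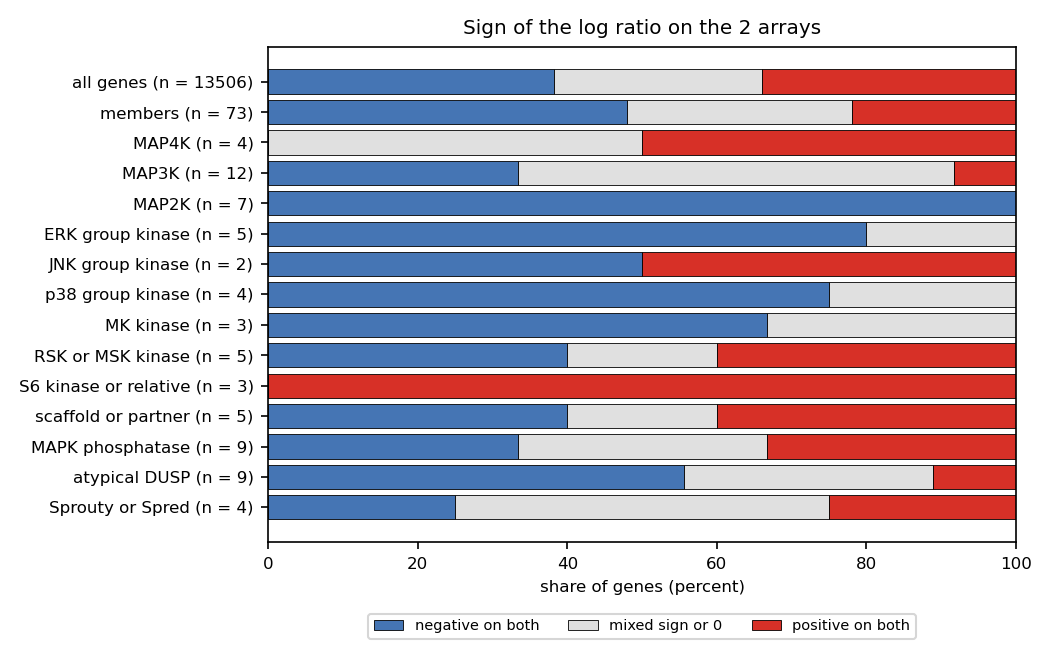
Share of genes (percent, x axis) that were negative on both arrays (blue), of mixed sign or 0 (grey) and positive on both (red), for all genes, all members and each role group of proteins (rows, with the number of genes). All 7 MAP2K genes are negative on both arrays and all 3 genes of the group of S6 kinases and relatives positive on both, while the groups are small.

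The scaffolds were likewise divided. Mapk8ip1, the scaffold JIP1 that holds the JNK module together, had -0.74 and -0.46, a mean of -0.60 ± 0.20 (SD, n = 2) and a limma adjusted p of 0.108. Mapk8ip3, the related scaffold JIP3, had 0.07 and 0.05. Mapk1ip1 had -0.13 and -0.21, Mapk1ip1l 0.13 and 0.18, and Map3k7cl -0.26 and 0.37. Of these 5 genes, 1, or 20%, had an unadjusted limma p under 0.05, against 27.5% of all genes.

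The widest ratio of all members was that of Rps6kc1, a ribosomal S6 kinase-like protein that binds endosomal membranes. It had 2.10 on array 1 and 1.13 on array 2, a mean of 1.62 ± 0.68 (SD, n = 2), which is 3.07-fold. Its limma adjusted p was 0.0514, which misses the threshold, and its 95% interval ran from 0.95 to 2.29. It was the 1 member with at least 1 log2 unit on both arrays on the positive side, where the background was 1.69%, and 0 members met that on the negative side, where it was 0.578%. Rps6kb1, the S6 kinase of the mTOR pathway, had 0.63 and 0.26, and Rps6kb2 had 0.29 and 0.03. All 3 genes of the group of S6 kinases and relatives, taken by their Rps6k names, were thus positive on both arrays. The limma adjusted p was 0.178 and 0.541 for Rps6kb1 and Rps6kb2. The 250 bases before the start of Rps6kc1 in the RefSeq table of GRCm38.p6 (chr1:190911771-190912020, minus strand, 5′ to 3′) are shown because this gene lies farthest from 0. Capitals mark the GC box GGGCGGG and the Ets site CCGGAAG, to which Ets factors, a class of ERK targets, bind.
Rps6kc1: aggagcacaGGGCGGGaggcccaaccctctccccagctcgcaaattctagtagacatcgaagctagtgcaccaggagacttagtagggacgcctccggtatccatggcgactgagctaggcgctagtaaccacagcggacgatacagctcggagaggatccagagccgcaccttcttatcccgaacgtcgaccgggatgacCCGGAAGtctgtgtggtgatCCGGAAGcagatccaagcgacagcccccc
The Ets letters occur 2 times, starting 49 and 29 bases before the gene start. Of 10826 measured genes with such a window, 11.9% hold them on either strand, as do 8.77% of the 57 members with a window. A match of letters is not a measured site.

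Rps6ka1, which encodes RSK1, a kinase activated by ERK, was measured by 2 probes that gave opposite values. The probe M200007174 had -1.45 and -1.39, and the probe M300000455 had 0.95 and 0.74. Each probe was close to itself on the other array, and the probes lay 2.40 apart on array 1 and 2.13 apart on array 2. In limma's fit on probes, where 1.26% of 18837 probes were called, M200007174 passed with a mean of -1.42 ± 0.04 (SD, n = 2), 2.68-fold, and an adjusted p of 0.0439, and it was the 1 called probe of any member. M300000455 had 0.84 ± 0.15 and an adjusted p of 0.0738. Averaging them, as the rule for genes does, gave -0.29 ± 0.06 and an adjusted p of 0.272, a value that neither probe showed. Among 168 genes with several probes, the median distance between the outermost probe means was 0.45, and 1 gene had a larger distance than the 2.26 of Rps6ka1. The sequences of the probes, and so the part of the transcript each one reads, were not used here.

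**Figure D4:**
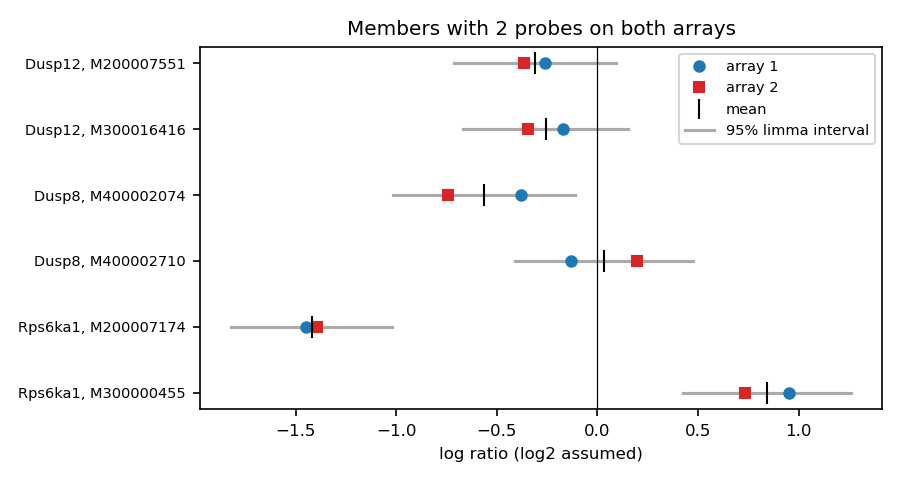
Log ratio (log2 assumed, x axis) of each probe of the 3 members with 2 probes on both arrays (rows: gene and probe), with array 1 as circles, array 2 as squares, the mean as a tick and the 95% limma interval of the fit on probes as a grey bar. The intervals of the Rps6ka1 probes lie on opposite sides of 0, from -1.82 to -1.02 and from 0.43 to 1.26.

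The RefSeq table lists 3 starts for Rps6ka1 on the minus strand of GRCm38.p6, of which the second and the third lie inside the gene. The 100 bases before each are shown, 5′ to 3′, because the probes of this gene disagreed, with the GC box GGGCGGG or its reverse complement in capitals. They lie at chr4:133887798-133887897, chr4:133874732-133874831 and chr4:133873036-133873135, in that order.
Rps6ka1 start 1: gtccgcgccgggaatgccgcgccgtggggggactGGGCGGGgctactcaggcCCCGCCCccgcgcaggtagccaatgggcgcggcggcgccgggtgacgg
Rps6ka1 start 2: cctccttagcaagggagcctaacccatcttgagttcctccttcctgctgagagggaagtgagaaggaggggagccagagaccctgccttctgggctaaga
Rps6ka1 start 3: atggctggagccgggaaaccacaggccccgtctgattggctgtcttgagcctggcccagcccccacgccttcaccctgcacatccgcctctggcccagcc
The GC box was found before the first of these starts and not in the 100 bases before the others. Use of the starts was not measured.

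The other downstream kinases were mixed. Rps6ka5, the nuclear kinase MSK1 that phosphorylates histone H3 and CREB, had 0.32 and 0.93, a mean of 0.63 ± 0.43 (SD, n = 2) and a limma adjusted p of 0.140. The relative Rps6ka4, MSK2, had 0.33 and -0.19. Rps6ka3, which is RSK2, had -0.16 and -0.29, and Rps6ka6, which is RSK4, had 0.29 and 0.13. The p38-activated kinases Mapkapk2 and Mapkapk3 were negative on both arrays, with -0.35 and -0.52 for the former and -0.50 and -0.29 for the latter. Their means were -0.44 ± 0.12 and -0.40 ± 0.15, with limma adjusted p of 0.158 and 0.184. Mapkapk5 had -0.19 and 0.10.

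The classical MAP kinase phosphatases held members far out on both sides. Of 9 measured, 3 lay on the negative side on each array, 3 on the positive side and 3 were of mixed sign, with means from -1.14 to 0.87. Dusp9, a cytoplasmic phosphatase that acts mainly on ERK, had -1.44 and -0.84, a mean of -1.14 ± 0.42 (SD, n = 2) or 2.20-fold, and a limma adjusted p of 0.0584. Dusp10, which acts on JNK and p38, had 0.59 and 1.15, a mean of 0.87 ± 0.40 or 1.83-fold, and a limma adjusted p of 0.0837. Both came near the threshold from opposite sides and neither passed it. Dusp1, an immediate early gene whose nuclear product acts on p38, JNK and ERK, had 0.50 and 0.53, so that its arrays differed by little, and a mean of 0.51 ± 0.02 with a limma adjusted p of 0.120. Dusp7, a cytoplasmic ERK phosphatase, had -0.38 and -0.47 and a limma adjusted p of 0.160. Dusp6, the ERK phosphatase often read as a gauge of ERK activity, lay near 0 at 0.12 and 0.19, with a 95% limma interval from -0.23 to 0.54. Dusp4 had -0.13 and 0.12, Dusp2 0.23 and -0.38 and Dusp16 -0.28 and 0.02. The sign of Dusp4 turned when the arrays were centred or scaled. Dusp8 averaged -0.26 ± 0.01 over its 2 probes, which gave -0.38 and -0.74 for M400002074 and -0.13 and 0.19 for M400002710. The platform names the second probe 5530400B01Rik, and it was assigned to Dusp8 through the update of symbols. The probes moved in opposite directions between the arrays, with SDs of 0.26 and 0.23, so the SD of 0.01 describes only their average.

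The 250 bases before the start of Dusp1 in the RefSeq table of GRCm38.p6 (chr17:26508473-26508722, minus strand, 5′ to 3′) are shown because this gene is known to be induced by the kinases it switches off. Capitals mark the GC box GGGCGGG and, directly after it, the cyclic AMP response element (CRE) TGACGTCA.
Dusp1: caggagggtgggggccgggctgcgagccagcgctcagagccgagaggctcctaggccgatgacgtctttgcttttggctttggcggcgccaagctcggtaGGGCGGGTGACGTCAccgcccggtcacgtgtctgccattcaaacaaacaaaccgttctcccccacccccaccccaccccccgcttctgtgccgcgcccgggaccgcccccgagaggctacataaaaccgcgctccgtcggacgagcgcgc
The CRE starts 143 bases before the gene start. It was found in 2 of the 57 members with a window, Dusp1 and Dusp8, and in 2.45% of the 10826 measured genes with one. Dusp1 was positive and Dusp8 negative in the mean. The other motifs searched on both strands were the AP-1 site TGANTCA, in 7.02% of members and 5.43% of genes, the TATA box TATAAA, in 1.75% and 9.14%, and the CArG box, in 0 members and 1.29% of genes. The GC box was in 52.6% of members and 39.1% of genes, and the median GC content of the windows was 63.6% and 58.4%.

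Of the 9 atypical DUSP genes, which lack the MAP kinase docking domain of the classical group, 5 were negative and 1 positive on both arrays. Dusp14, a phosphatase that restrains T cell receptor signalling, had -0.56 and -1.40, a mean of -0.98 ± 0.59 (SD, n = 2) or 1.97-fold, and a limma adjusted p of 0.0930. Dusp23 had -1.0 on array 1 but -0.07 on array 2. Dusp18 had -0.15 and -0.76. In both cases a single array carries most of the mean. Dusp12, a zinc-binding phosphatase, had -0.21 and -0.35, and its 2 probes had means of -0.31 and -0.26. Dusp28 differed in sign, with -0.51 and 0.77, which was the largest difference between the arrays among the 73 members. Dusp3, Dusp11, Dusp13 and Dusp19 had means from -0.16 to 0.17, and Dusp11, with 0.22 and 0.12, was the gene positive on both arrays.

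Sprouty and Spred genes were measured in 4 cases. Spred1, which binds neurofibromin and brings it to Ras, had 0.57 and 0.96, a mean of 0.77 ± 0.28 (SD, n = 2) or 1.70-fold, and a limma adjusted p of 0.0853. Spred3 had -0.40 and -0.25 and a limma adjusted p of 0.237. Spry3 and Spry4 had signs that differed between the arrays, with -0.20 and 0.34 for the former and 0.20 and -0.18 for the latter. Their 95% limma intervals, -0.42 to 0.57 and -0.43 to 0.45, include differences up to those bounds on either side.

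Genes around the pathway were read from 4 lists. Of 28 measured genes of Ras and Raf signalling, limma called 0 over all genes, while 8 were positive and 9 negative on both arrays. An unadjusted limma p under 0.05 was reached by 5 of them, or 17.9%, against 27.5% of all genes. Nf1, which encodes the neurofibromin that Spred1 binds, had -1.02 and -0.53 and a mean of -0.78 ± 0.34 (SD, n = 2; limma adjusted p = 0.0906). Shoc2, an activator of Raf, had -0.55 and -0.56, and Rasal1, an inhibitor of Ras, 0.66 and 0.40. Spred1 and its partner Nf1 thus lay on opposite sides on both arrays.

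Transcripts induced by ERK showed no common side. Of 20 measured, 0 passed limma's test, and 6 were positive and 6 negative on both arrays, with a median of -0.01. An unadjusted limma p under 0.05 was reached by 4 of them, or 20%, against 27.5% of all genes. Egr3, an early growth response factor, had 0.82 and 0.42, Etv5, an Ets factor downstream of ERK, -0.50 and -0.60, and Junb -0.36 and -0.39. Their limma adjusted p ran from 0.111 to 0.189. Of 16 measured phosphatases and kinases outside the member families, 0 passed limma's test. In that list 2 genes, or 12.5%, had an unadjusted limma p under 0.05, also against 27.5% of all genes. The farthest out were Taok1, a kinase of the MAP3K class, at -0.99 and -0.35, Ppp2r1b, a scaffold subunit of protein phosphatase 2A, at 0.50 and 0.57, and Taok2 at 0.73 and 0.22.

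The list of JNK and p38 partners and responses held the 2 called genes of the 4 lists, out of 20 measured, both on the positive side, where 2.12% of all genes were called. The other lists, with 28, 20 and 16 measured genes, held 0. An unadjusted limma p under 0.05 was reached by 6 of the 20 genes, or 30%, near the 27.5% of all genes. Zfp36l1, an RNA-binding protein that destabilises AU-rich transcripts and is phosphorylated by Mapkapk2, had 1.35 and 1.12, a mean of 1.24 ± 0.16 (SD, n = 2) and a limma adjusted p of 0.0410. Ptgs2, the prostaglandin synthase COX-2 whose transcript p38 stabilises, had 1.19 and 1.02, a mean of 1.11 ± 0.12 and a limma adjusted p of 0.0438. Both calls lie near the threshold and each was kept in 3 of 8 alternative settings. Tab3, a partner of Map3k7, had 0.51 and 0.63 (limma adjusted p = 0.106). In the whole list 6 genes had 2 positive and 8 had 2 negative values.

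The tumours also hold cells of the host, and in bulk RNA fewer cells of a type and less RNA per cell cannot be told apart. The table has ratios and no levels, so the labelled tissues could not be checked against absent or present markers. The median of the 9 of 16 hepatocyte markers with values was -0.09 on array 1 and 0.03 on array 2, that of the 8 of 9 T and NK cell markers 0.23 and -0.03, and that of the 7 of 9 epithelial markers -0.03 and 0.28, so these lists had no common side on the arrays. The 6 of 7 smooth muscle markers also had medians of opposite sign, at -0.37 and 0.09, with 2 markers positive and 3 negative on both arrays. The 5 of 9 macrophage markers had -0.19 on both arrays and the 4 of 5 B cell markers 0.16 and 0.06. Both lists were split. The macrophage list held 2 markers positive and 3 negative on both arrays, with means from -1.20 to 1.12, and the B cell list 2 and 2. The 7 of 9 fibroblast markers had -0.65 on array 1 and -0.11 on array 2, and the 6 of 9 endothelial markers, each positive on both arrays, had 0.63 and 0.66. In limma's test over all genes, 2 endothelial and 1 smooth muscle marker passed on the positive side, where 2.12% of all genes did. On the negative side 1 fibroblast and 1 macrophage marker passed, against 0.777% of all genes. Of the hepatocyte, T and NK cell, B cell and epithelial markers 0 passed in either direction. In these lists 4, 2, 2 and 2 markers had an unadjusted limma p under 0.05 (44.4%, 25%, 50% and 28.6%, against 27.5% of all genes). Below that p lay 2 positive and 1 negative macrophage marker (60% of the list) and 2 positive and 2 negative smooth muscle markers (66.7%). So did 4 endothelial markers, all positive (66.7%), and 2 fibroblast markers, both negative (28.6%, near the 27.5% of all genes). The part of host cells in the values of Rps6kc1, Dusp10, Spred1 and the other members was not tested.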

How the data were processed

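RNA was amplified with an amino-allyl aRNA kit and coupled to Cy5 or Cy3, per the labels' protocols. The authors deposited 1 log ratio per probe and array, taken here as log2. Their log base, numerator, background correction and normalization are not stated. The number of arrays, 2, limits the precision.

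Symbols of the platform annotation (1 symbol for 16631 probes, 0 with several, 6842 with none) were updated through the RefSeq gene table of GRCm38.p6, and probes of a gene with values on both arrays were averaged. Promoter windows of that build were found for 57 of 73 members.

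For each of 13506 genes, limma 3.58.1 (R 4.3.3) fitted an intercept and moderated it with eBayes, with 1 residual and 4.06 prior degrees of freedom, and p-values were adjusted by Benjamini-Hochberg over all genes at a threshold of 0.05. The script was tested on simulated data of 13506 genes. It called 16% of 50 genes changed by 1 log2 unit and 96% of 50 changed by 2, with 12 false calls. A gene that was not called is therefore not shown to be unchanged. Alternatives were centring, scaling, quantile normalization, a fit on probes, robust or no moderation, a minimum fold of 1.2, the first probe of a gene and leaving out each array.

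The members and lists were chosen with earlier results of these data known. The rule for values on each array took called members, per role group up to 3 of the same sign on both arrays ranked by the smaller of their values, the 5 with the largest difference between arrays, and all ERK, JNK, p38 and classical phosphatase genes. Pathway lists followed the called genes and the same rank. Other members are named to account for their group. Figures were drawn with matplotlib 3.10.9.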

Additional observations from a re-analysis of the deposited data

How the results depend on the processing

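Of the 48 members given by rule, 47 kept their sign in all 8 alternatives with a test. Dusp4, at -0.0043 as reported, turned to 0.020 after centring and 0.0091 after scaling. In the fit on probes each gene was represented by its probe with the lowest adjusted p. The positive probe means of Rps6ka1 (0.84 for M300000455) and Dusp8 (0.03 for M400002710) therefore did not enter the comparison of signs. The count of called members, 0 as reported by limma with 22 at an unadjusted p under 0.05, was 1 in the fit on probes and 1 with the first probe of each gene, in both cases Rps6ka1 through M200007174 at -1.42 (limma adjusted p = 0.0439 and 0.0365). It was 0 in the other 6, with 5 to 22 members and 1450 to 3727 of all genes at an unadjusted p under 0.05. The lowest adjusted p of Rps6kc1 over the alternatives was 0.0528 and the highest 0.503. Over all genes limma called 391, against 358 after centring, 267 with robust moderation and 265 with the first probe of each gene. The count was 241 after scaling, 4 after quantile normalization and 108 with the minimum fold. It was 0 without moderation, where 1450 had an unadjusted p under 0.05. The fit on probes called 238 of 18837 probes, which is not a count of genes. The cause of these differences was not tested. The 2 calls in the pathway lists became 0 after scaling, after quantile normalization, in the fit on probes, with the minimum fold and without moderation. The median of the members, -0.14, was -0.12 after centring, -0.12 after scaling, -0.094 over the 79 members with a value on at least 1 array, and -0.19 to -0.16 with a single array. After centring and after scaling, 33 members were negative and 18 positive on both arrays, against 35 and 16 as reported. Counts of signs on both arrays need both arrays and were not computed without 1 of them. The contrast was made within each array, as each is itself a ratio of a tumour and a metastasis that was tested against 0. No further pairing was modelled, and the labels give 1 group. The dye orientation was not swapped, so a dye bias cannot be told apart from a difference between tissues.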

Other observations

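Among the 12 member symbols without a value on both arrays, 6 had a value on a single array and 6 on neither. On array 2 alone, Mapk10, the JNK form best known from neurons, had 1.84, Spry2, an inhibitor of receptor tyrosine kinase signalling, 0.76, Dusp15 0.72 and Spred2 0.11. On array 1 alone, Rps6kl1 had 0.80 and Dusp26 0.24. All 6 values were positive, and none has a replicate. Dusp21, Dusp27, Map3k9, Map3k19, Mapk8ip2 and Spry1 had none.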
